A study of Mus musculus with 6 samples.

Results

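The 10 genes described here belong to the noncanonical Wnt axis around Wnt5a: the ligand genes Wnt5a, Wnt5b and Wnt11, the receptor genes Ror1 and Ror2, the atypical kinesin genes Kif26b and Kif26a, and the planar cell polarity genes Vangl1, Vangl2 and Prickle1. They are 10 of the 55536 genes counted, were picked by symbol in the GENCODE annotation, and were proposed with results of the p16+ against p16- comparison already known. Their values in that comparison are therefore given as a description, without p-values, and support nothing.

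The libraries were made from stromal cells sorted out of mouse quadriceps after surgical loss of muscle volume, as negative for the leukocyte protein CD45 and the endothelial protein CD31 and positive for the integrin CD29. There were 3 libraries of tdTomato-positive (p16+) cells and 3 of tdTomato-negative (p16-) cells. Both groups came from mice on the C57Bl/6 background with a tdTomato reporter of p16, the cell cycle inhibitor that Cdkn2a encodes and that often serves to mark senescent cells. Per the labels' protocols the mice were operated on at 10 weeks of age, and the fillers in use were polycaprolactone particles (30 mg), decellularized extracellular matrix, and saline (50 uL), with harvest after 1 or 6 weeks. The protocol gave all animals the anti-inflammatory drug carprofen (5 mg/kg). The sources used here give neither the filler and time of each library nor whether the animals were separate or pooled, so the spread behind the p-values is that between these libraries and may be technical. Whether filler or time differed between the groups was not tested.

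In the noncanonical branch, Wnt5a and related ligands bind Frizzled receptors together with the ROR receptor tyrosine kinase-like proteins and act through Dishevelled without stabilising beta-catenin. In mouse embryonic fibroblasts, Wnt5a and ROR signalling lowers the Kif26b protein by degradation, so the transcript measured here and the protein are separate quantities. Vangl and Prickle proteins form part of the planar cell polarity system, which orients cells within a tissue and guides their movement.

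The libraries held 35253406 to 37861713 counts in p16+ and 36507067 to 39103909 counts in p16-. Cdkn2a, the check of the labels, stood at 6.91, 8.82 and 7.74 CPM, the counts-per-million scale with normalized library sizes, in p16+ and at 2.41, 1.77 and 2.20 CPM in p16-, so that it was measured in reporter-negative cells too. These counts are of the whole gene, so the p16 transcript was not measured apart from other transcripts of Cdkn2a. The summed level of 7 stromal markers was 115189 to 121170 CPM in p16+ and 70064 to 83589 CPM in p16- (3 of 7 called higher, 1 lower). Most of it was collagen: Col1a1 averaged 37831 CPM in p16+ and 20414 in p16-, and Col3a1 69175 and 44919. Of the other stromal markers, Pdgfrb and Itgb1 averaged higher in p16+, and Pdgfra, Dcn and Ly6a lower. Markers of other cells were present at lower sums. Those of macrophages and other leukocytes summed to 238 to 272 CPM in p16+ and 168 to 193 CPM in p16- (3 of 10 called, each of them higher), those of endothelium to 69.6 to 96.3 CPM in p16+ and 175 to 207 CPM in p16- (3 of 8 higher, and 1 lower, Tek), and those of pericytes and smooth muscle to 1943 to 2019 CPM in p16+ and 1300 to 1657 CPM in p16- (5 of 8 called, each of them higher). Satellite cell and myoblast markers summed to 102 to 110 CPM in p16+ and 59.6 to 69.8 CPM in p16- (3 of 6 higher, and 1 lower, Myog). Most of this sum was Des, which averaged 90.3 CPM in p16+ and 52.1 in p16-. Muscle fibre markers summed to 15.8 to 25.6 CPM in p16+ and 15.2 to 21.8 CPM in p16- (0 of 6 called by edgeR or DESeq2, and 0 at an unadjusted p under 0.05). Schwann cell and glial markers summed to 46.5 to 57.3 CPM in p16+ and 78.5 to 137 CPM in p16- (4 of 6 called, each of them lower). Without Tek, a choice made after its values were seen, the endothelial sum was 26.7 to 41.6 CPM in p16+ and 21.5 to 26.8 CPM in p16-. No marker was at 0 in all 6 libraries, and Fcgr1 alone was at 0 in some. The sort genes gave transcripts too: Itgb1 of CD29 averaged 891 ± 21.7 CPM in p16+ and 758 ± 53.4 in p16-, Ptprc of CD45 7.77 ± 2.22 in p16+ and 4.89 ± 0.929 in p16-, and Pecam1 of CD31 6.73 ± 1.58 in p16+ and 3.34 ± 0.778 in p16- (mean and SD, n = 3 libraries each). By edgeR's test over all genes Pecam1 was called higher (adjusted p = 0.00871, and 0.0621 without p16+ replicate 3), and Ptprc and Itgb1 were not (adjusted p = 0.0602 and 0.0543), though DESeq2 called both higher (adjusted p = 0.0381 and 0.00955). The part of these other cells in the values below was not tested.

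The genes of the axis moved in both directions, also within the receptor pair. The ligand genes Wnt5a and Wnt11 were lower in p16+ cells and the kinesin gene Kif26b was 4.83-fold higher, while of the receptor pair Ror1 was higher and Ror2 lower. Prickle1 was higher, and the values of Wnt5b, Kif26a, Vangl1 and Vangl2 overlapped between the groups. Of the 10 genes, all of which passed the filter on low counts, 3 were called higher and 3 lower by edgeR's quasi-likelihood test at an adjusted p under 0.05 over all 15903 genes tested. Over all genes tested 16.7% were called, 8.69% higher and 8.04% lower, and 33.1% held p16+ and p16- values that did not overlap, as did 6 of the 10. Of the 2660 genes called, 52.0% were higher, against 36.0% when library sizes alone were used for scaling. The median log2 fold change (p16+ over p16-) was -0.01 over the 10 genes and -0.01 over all genes tested, and the median size without regard to sign was 0.41 over the 10 genes and 0.23 over all. Without p16+ replicate 3 only 1 of the 10, Kif26b, was called higher, against 3 with all libraries. In sorted bulk samples, fewer cells of a type and less RNA per cell cannot be told apart.

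**Figure D1:**
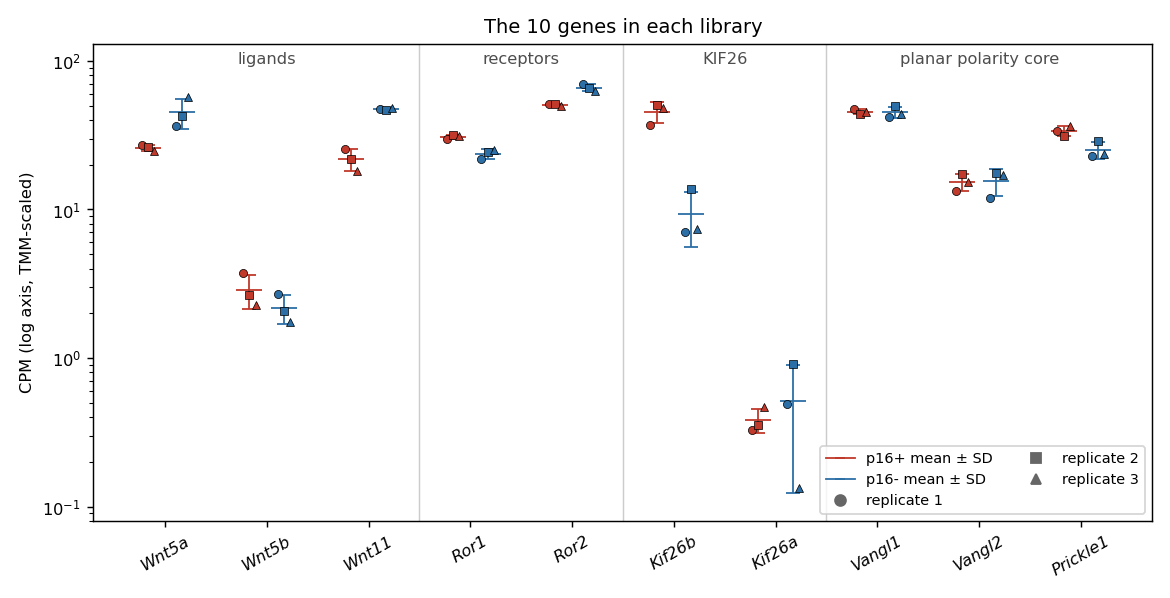
CPM of the 10 genes in each library on a log axis, p16+ in red to the left of p16- in blue, with the mean and SD of 3 libraries as bars and the replicates as symbols. Kif26b, Ror1 and Prickle1 lie higher in every p16+ library, Wnt5a, Wnt11 and Ror2 lower, and the other 4 genes overlap.

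For 4 of the genes called, the start is shown as the 250 bases before the annotated start in RefSeq (GRCm38.p6), written 5′ to 3′ in the direction of transcription. RefSeq promoter windows, of 250 bases before and 50 after the start, were matched for 8 of the 10 genes, all but Wnt5a and Vangl1, with 12 windows in all. Capitals mark exact matches to 4 short motifs searched on both strands: CTTTGAT of TCF/LEF factors, TGANTCA of AP-1, GGAATG of TEAD factors and TATAAA, the TATA box. The last of these is where the general transcription machinery can bind, a short way before the start. The 4 sequences are those of Wnt11 (chr7:98834862-98835111, plus strand), the receptor pair Ror2 (chr13:53286125-53286374, minus strand) and Ror1 (chr4:100095541-100095790, plus strand), and Kif26b (chr1:178528875-178529124, plus strand).
Wnt11: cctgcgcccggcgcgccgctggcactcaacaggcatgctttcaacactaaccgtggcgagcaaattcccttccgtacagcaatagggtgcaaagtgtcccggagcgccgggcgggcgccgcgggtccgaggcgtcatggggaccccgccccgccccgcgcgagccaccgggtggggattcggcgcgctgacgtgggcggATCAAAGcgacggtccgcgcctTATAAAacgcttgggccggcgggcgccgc
Ror2: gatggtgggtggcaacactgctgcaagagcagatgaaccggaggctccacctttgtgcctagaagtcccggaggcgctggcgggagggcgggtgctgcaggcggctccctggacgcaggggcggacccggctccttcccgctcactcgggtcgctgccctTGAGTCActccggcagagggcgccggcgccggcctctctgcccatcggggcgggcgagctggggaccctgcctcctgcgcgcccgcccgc
Ror1: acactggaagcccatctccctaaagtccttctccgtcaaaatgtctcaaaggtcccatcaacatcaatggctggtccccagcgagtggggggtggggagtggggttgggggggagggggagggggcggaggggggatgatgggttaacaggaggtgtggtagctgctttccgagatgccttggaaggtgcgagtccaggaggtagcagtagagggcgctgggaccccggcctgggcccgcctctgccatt
Kif26b: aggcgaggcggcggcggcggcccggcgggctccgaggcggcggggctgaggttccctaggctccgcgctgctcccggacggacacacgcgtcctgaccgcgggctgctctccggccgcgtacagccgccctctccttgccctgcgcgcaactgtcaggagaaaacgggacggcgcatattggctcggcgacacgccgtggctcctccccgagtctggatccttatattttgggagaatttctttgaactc

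The Wnt11 sequence held TATAAA with its first base 29 bases before the start, and the reverse complement of CTTTGAT 51 bases before it. A further Wnt11 window, with its start at 98838845, held none of the 4 motifs and 23 CpG dinucleotides. Which start these cells use was not measured. The Ror2 sequence held TGAGTCA 90 bases before the start, a match on both strands. The windows of Ror1 and Kif26b held none of the 4 motifs in these letters. Among the 12 windows, CTTTGAT was in 2 (3.73% of all 32851 windows in the table), TGANTCA in 2 (7.81%), GGAATG in 1 (14.7%) and TATAAA in 1 (13.6%). The windows of the receptor pair differed in CpG dinucleotides, with 32 in Ror2 and 10 in Ror1. The first Wnt11 window held 45 and that of Kif26b 38, against a median of 7 (quartiles 3 and 20) over all windows.

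Of the ligands, Wnt11, which guides cell movements of gastrulation in fish and frogs, is encoded on chromosome 7 (ENSMUSG00000015957.12, 98835112 to 98855195, plus strand, GRCm38). It had 25.5, 22.0 and 18.1 CPM in the p16+ libraries, against 47.6, 46.8 and 47.9 CPM in the p16- libraries. The p16- values lay close together while the p16+ values spread more widely, and the groups did not overlap. Its mean was 21.9 ± 3.70 CPM in p16+, against 47.4 ± 0.573 in p16- (mean and SD, n = 3 libraries each), a log2 fold change of -1.12 (SE 0.11). Of its exonic length 8.8% is overlapped by the pseudogene Gm8398 on the opposite strand, which had 0 counts in all 6 libraries. Counting did not use strand, so this 0 does not show that Gm8398 was silent.

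Wnt5a (ENSMUSG00000021994.15, chromosome 14, 28504750 to 28527448, plus strand), the ligand from which the pathway takes its name, had 27.1, 26.4 and 24.7 CPM in p16+ and 36.7, 42.5 and 56.8 CPM in p16-. Here the p16- libraries were the ones that varied, and each was above each p16+ library. The log2 fold change was -0.80 (SE 0.13), the p16+ libraries averaging 26.0 ± 1.23 CPM and the p16- libraries 45.3 ± 10.4 CPM (mean and SD, n = 3 libraries each). The antisense gene Gm2670 overlaps 4.58% of its exons and had 8 to 17 counts in p16+ and 10 to 13 counts in p16-.

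Wnt5b (ENSMUSG00000030170.14, chromosome 6, 119432531 to 119544347, minus strand), the closest relative of Wnt5a, was a minor transcript. It had 3.71, 2.64 and 2.28 CPM in p16+ and 2.70, 2.07 and 1.75 CPM in p16-. The groups overlapped, and the log2 fold change of 0.40 (SE 0.31) was not called.

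Set per exon length, as FPKM (CPM per 1000 bases of exon), the 3 ligand genes summed to 11.0, 9.68 and 8.39 in p16+ and to 17.2, 17.5 and 19.5 in p16-. The summed level was lower in each p16+ library. Wnt11 was the largest ligand by this measure in all 6 libraries, with 54.3% ± 1.94 of this sum in p16+ and 63.6% ± 3.83 in p16-. That place rests on the annotated exon lengths, 7823 bases for Wnt5a and 4137 for Wnt11. In CPM, Wnt5a was above Wnt11 in every p16+ library. Which transcripts these cells use was not measured. Wnt5a took 34.6% ± 3.11 in p16+ and 31.8% ± 5.06 in p16-, a share that overlapped between the groups, and Wnt5b took 11.1% ± 1.41 in p16+ and 4.58% ± 1.28 in p16- (mean and SD, n = 3 libraries each).

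Both receptor genes encode ROR proteins that bind Wnt5a through a Frizzled-like extracellular domain. Ror2 (ENSMUSG00000021464.14, chromosome 13, 53109312 to 53286124, minus strand) had 51.1, 51.4 and 50.1 CPM in p16+ and 69.9, 65.6 and 62.5 CPM in p16-. The p16+ libraries were nearly equal and all lay lower, with a log2 fold change of -0.38 (SE 0.08). Ror1 (ENSMUSG00000035305.5, chromosome 4, 100095791 to 100444765, plus strand) went the other way, at 29.8, 31.5 and 31.2 CPM in p16+ and 21.8, 24.2 and 25.1 CPM in p16-. Its log2 fold change was 0.38 (SE 0.10), and the call of Ror1 was lost without p16+ replicate 2 or p16+ replicate 3, at log2 fold changes of 0.36 and 0.37.

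These opposite shifts changed the balance of the pair within each library more than their sum. Per exon length, Ror2 stood at 2.33, 2.22 and 2.18 times the level of Ror1 in p16+, against 4.35, 3.69 and 3.38 times in p16-. The ratio averaged 2.24 ± 0.0789 in p16+ and 3.80 ± 0.497 in p16- (mean and SD, n = 3 libraries each). It could not overlap between the groups, as Ror1 was higher and Ror2 lower in every p16+ library. Ror2 remained the more abundant receptor in every library. The pair summed to 17.3 ± 0.206 FPKM in p16+, against 19.7 ± 0.590 in p16-.

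**Figure D2:**
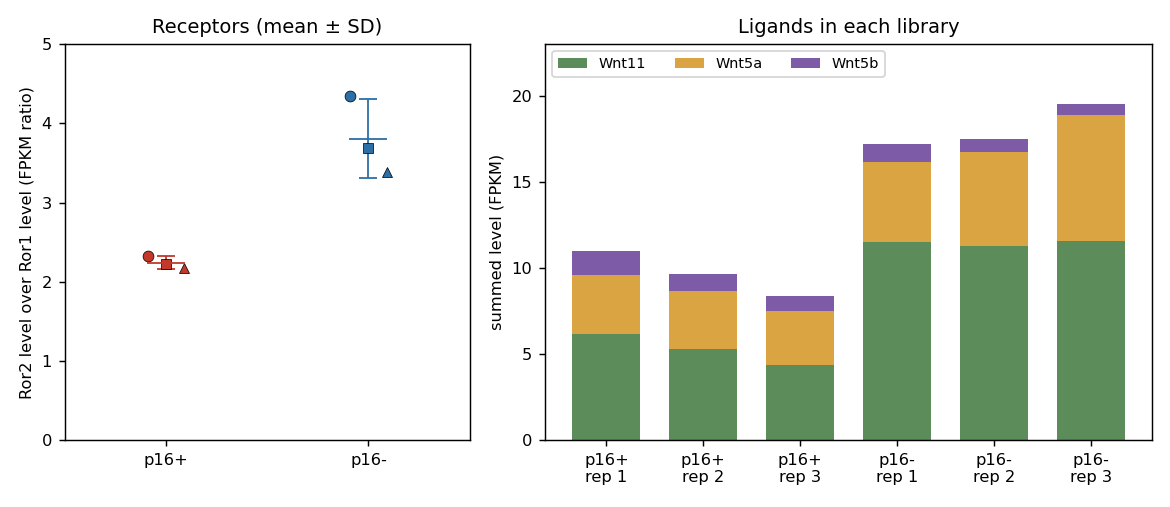
Left, the ratio of the Ror2 to the Ror1 level per exon length in each library with mean and SD, p16+ left of p16-. Right, the stacked levels (FPKM) of Wnt11, Wnt5a and Wnt5b in each library. The receptor ratio averages 2.24 in p16+ and 3.80 in p16-, and the ligand sum is 8.39 to 11.0 FPKM in p16+ and 17.2 to 19.5 FPKM in p16-.

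Kif26b (ENSMUSG00000026494.12, chromosome 1, 178529125 to 178939200, plus strand) encodes an atypical kinesin that acts downstream of Wnt5a and ROR. It had 37.0, 50.8 and 48.5 CPM in p16+ and 7.01, 13.7 and 7.42 CPM in p16-. The p16- library of replicate 2 was the highest of its group, and the lowest p16+ library was still well above it. The log2 fold change was 2.27 (SE 0.24), and it lay between 2.10 and 2.66 when any 1 library was left out. The antisense gene Gm16564 overlaps 6.19% of its exons and had 0 counts in all 6 libraries. As strand was not used, this 0 does not show that Gm16564 was silent.

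Its relative Kif26a (ENSMUSG00000021294.7, chromosome 12, 112146208 to 112181747, plus strand), which restrains GDNF and Ret signalling in enteric neurons of mice, was close to the lower limit of measurement. It was counted 12, 13 and 16 times in the p16+ libraries and 20, 36 and 5 times in the p16- libraries. The groups overlapped, and at this depth the log2 fold change of -0.42 (SE 0.76) was not distinguishable from 0 and turned to 0.29 without p16- replicate 2. Kif26b was the more abundant of the pair in every library, at 3.09 ± 0.503 FPKM in p16+ and 0.639 ± 0.257 in p16-, with Kif26a at 0.0555 ± 0.0106 FPKM in p16+ and 0.0739 ± 0.0560 in p16- (mean and SD, n = 3 libraries each).

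Relative to Wnt5a and to Ror2 within the same library, Kif26b shifted further than in its own level, as both were lower in p16+. Per exon length it stood at 0.727, 1.03 and 1.05 times Wnt5a in p16+, and at 0.102, 0.172 and 0.0695 times Wnt5a in p16-. Against Ror2 it stood at 0.258 ± 0.0426 in p16+ and 0.0412 ± 0.0169 in p16- (mean and SD, n = 3 libraries each). Kif26b was higher and Wnt5a and Ror2 were lower in every p16+ library, so neither ratio could overlap between the groups. The ratios restate the values of the single genes. Ratios to Ror1, which was higher in p16+, or to Wnt5b were not taken.

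Among the polarity genes, Prickle1 (ENSMUSG00000036158.12, chromosome 15, 93499114 to 93595891, minus strand), whose cytoplasmic LIM-domain protein binds Vangl proteins, had 33.9, 31.0 and 36.6 CPM in p16+ and 22.9, 28.8 and 23.6 CPM in p16-. The groups did not overlap, but p16+ replicate 2 and p16- replicate 2 were close. Its log2 fold change was 0.43 (SE 0.11), and its call was lost without p16+ replicate 3 or p16- replicate 3, at log2 fold changes of 0.37 and 0.39.

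Vangl1 (ENSMUSG00000027860.15, chromosome 3, 102153583 to 102204693, minus strand) and Vangl2 (ENSMUSG00000026556.15, chromosome 1, 172000960 to 172028444, minus strand) encode the membrane proteins that recruit Prickle. Vangl1 had 47.2, 44.1 and 45.4 CPM in p16+ and 41.9, 49.6 and 43.6 CPM in p16-. Vangl2 had 13.3, 17.3 and 15.2 CPM in p16+ and 11.9, 17.7 and 17.1 CPM in p16-. Both overlapped between the groups, with log2 fold changes of 0.02 (SE 0.09) and -0.03 (SE 0.16) that changed sign when single libraries were left out and, for Vangl1, with library sizes alone (-0.06). Per exon length, Prickle1 stood at 1.22 ± 0.0922 times Vangl1 in p16+ and 0.916 ± 0.0343 times in p16-, whereas Vangl1 stood at 2.96 ± 0.496 times Vangl2 in p16+ and 2.89 ± 0.496 times in p16- (mean and SD, n = 3 libraries each).

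Ordered by the level per exon length in p16+, the genes ran Ror2 (12.0 FPKM), Prickle1 (7.79), Vangl1 (6.37), Ror1 (5.35), Wnt11 (5.28), Wnt5a (3.33), Kif26b (3.09), Vangl2 (2.18), Wnt5b (1.08) and Kif26a. The neighbours Ror1 and Wnt11, and Wnt5a and Kif26b, overlapped in range. In p16- the order was Ror2 (15.6 FPKM), Wnt11 (11.5), Vangl1 (6.29), Wnt5a (5.79), Prickle1 (5.78), Ror1 (4.11), Vangl2 (2.23), Wnt5b (0.819), Kif26b (0.639) and Kif26a. There the ranges of Vangl1 and Wnt5a, of Wnt5a and Prickle1, and of Wnt5b and Kif26b overlapped. Kif26b thus overlapped in range with Wnt5a in p16+ cells and with the minor ligand Wnt5b in p16- cells. Within single p16- libraries the values could differ, at 0.477, 0.935 and 0.505 FPKM for Kif26b and 1.02, 0.779 and 0.658 for Wnt5b. By mean level, Wnt11 stood behind only Ror2 in p16- cells, but behind Ror2, Prickle1, Vangl1 and Ror1 in p16+ cells.

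**Figure D3:**
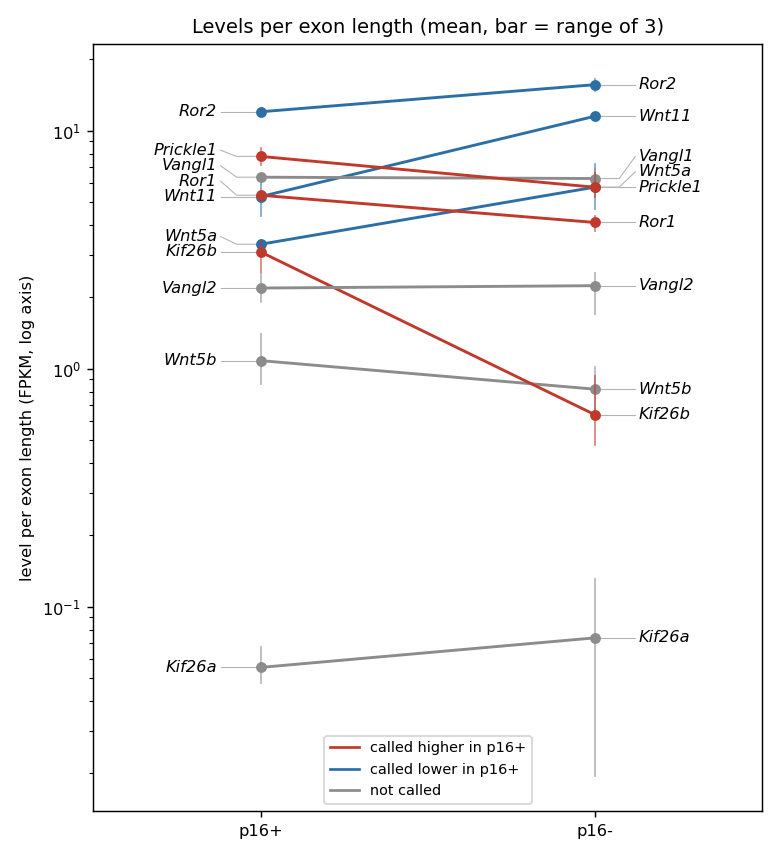
Mean level per exon length (FPKM, log axis) of the 10 genes in p16+ (left) and p16- (right), with the range of 3 libraries as a vertical bar and a line joining each gene. Red lines join genes called higher in p16+, blue lines genes called lower, grey lines genes not called, and Kif26b lies beside Wnt5a on the p16+ side and beside Wnt5b on the p16- side.

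Within the p16- group the genes also differed between libraries. Replicate 2 gave the highest value of 5 of the 10 genes, namely Kif26b, Kif26a, Vangl1, Vangl2 and Prickle1, and replicate 1 the lowest value of 6. The spread from lowest to highest on log2 CPM was 0.97 for Kif26b, 0.63 for Wnt5a and 0.03 for Wnt11. Within p16+, all 3 ligand genes were highest in replicate 1 and lowest in replicate 3, with spreads of 0.13 for Wnt5a, 0.69 for Wnt5b and 0.49 for Wnt11, while Kif26b was lowest in replicate 1. Kif26b and Vangl2 were lowest in replicate 1 and highest in replicate 2 in both groups, and Wnt5b was highest in replicate 1 and lowest in replicate 3 in both. For the other genes the replicate with the highest value differed between the groups, and Wnt5a and Vangl1 had their highest and lowest replicates exchanged.

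The 5 named genes whose log2 CPM followed Kif26b most closely over the 6 libraries were Prss35, Tnn, Actn1, Emilin1 and Tenm3, at Pearson correlations of 0.998 to 0.999. The points fall into 2 groups and share their libraries, so this measure holds the group difference and is a description only. Prss35, a serine protease family member, had 12.3, 17.3 and 15.2 CPM in p16+ and 2.41, 5.02 and 2.82 CPM in p16-. Tnn, the tenascin N gene of the extracellular matrix, had 30.4, 36.3 and 32.7 CPM in p16+ and 10.9, 15.9 and 11.0 CPM in p16-. The actin crosslinker gene Actn1 had 193 ± 10.3 CPM in p16+ and 88.1 ± 15.4 CPM in p16-, the elastic fibre gene Emilin1 324 ± 17.5 CPM in p16+ and 173 ± 21.5 in p16-, and the teneurin gene Tenm3 45.7 ± 3.12 CPM in p16+ and 27.4 ± 3.21 in p16- (mean and SD, n = 3 libraries each). Like Kif26b, each was highest in replicate 2 within p16-, a likeness that the choice by correlation over these libraries favours.

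**Figure D4:**
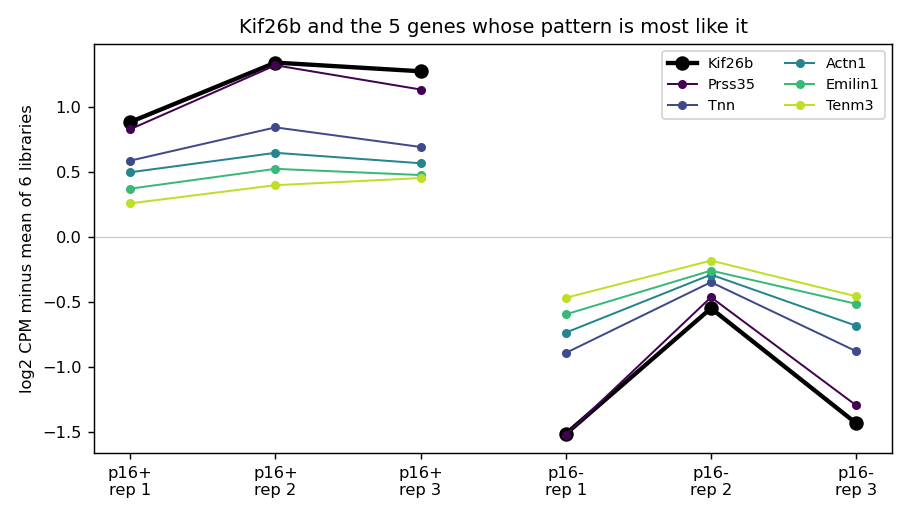
Log2 CPM minus the mean of the 6 libraries for Kif26b (black) and the 5 genes most like it, p16+ libraries left of p16- libraries. All 6 genes lie above 0 in p16+ and below 0 in p16-, and in p16- each is highest in replicate 2. The 5 genes were chosen for this likeness in the same libraries.

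The rest of the pathway was read from 4 lists with 45 genes, of which 43 passed the filter. The lists were written with earlier results of these data known, so their shares and p-values are a description and no independent evidence. Of these, 8 rose and 6 fell in p16+ (32.6% called, against 16.7% of all genes tested), and 29 did not pass. The share called was 50.0% in the list of frizzled receptors, 62.5% in that of Wnt secretion and partner genes, 15.4% in the polarity module and 16.7% in the calcium branch, and differences between lists were not tested. All adjusted p-values below are from edgeR's quasi-likelihood test, adjusted over all genes tested.

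Of 11 genes, those of the frizzled receptors and Ryk, 3 rose, 2 fell and 5 did not pass, with a median log2 fold change of 0.36. Fzd9 was under the filter, with 2 to 10 counts in p16+ and 0 to 11 counts in p16-. Fzd1, the most abundant frizzled gene per exon length, had 174, 207 and 215 CPM in p16+ and 119, 127 and 109 CPM in p16-, with a fitted log2 difference of 0.75 ± 0.09 (SE; adjusted p = 2.62e-05). Fzd2, a receptor for Wnt5a, rose to 55.2 ± 4.27 CPM in p16+, against 36.9 ± 2.33 CPM in p16- (adjusted p = 0.000223). Fzd10 fell to 6.92 ± 0.559 CPM in p16+, against 14.4 ± 1.56 CPM in p16-, with a fitted log2 difference of -1.06 ± 0.15 (SE; adjusted p = 0.000105). Fzd4, also the receptor of the non-Wnt ligand Norrin, fell to 72.7 ± 2.32 CPM in p16+, against 110 ± 12.7 CPM in p16- (adjusted p = 0.000170). The remaining call was Ryk, a kinase-like Wnt receptor, named after its value was seen, at 165 ± 12.1 CPM in p16+ against 124 ± 3.58 in p16-, at an adjusted p of 0.00134.

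Of 13 further genes of the polarity module, 1 rose, 1 fell and 11 did not pass, with a median log2 fold change of -0.19. Celsr1, Celsr2 and Celsr3 were among those that did not pass. At low counts their log2 fold changes were -0.78 (SE 0.58), -1.18 (SE 0.61) and 0.21 (SE 0.98). Ptk7, which encodes a kinase-dead membrane protein of the polarity pathway, had 38.3, 47.4 and 38.0 CPM in p16+ and 15.1, 17.5 and 14.5 CPM in p16-. All p16+ libraries were above all p16- libraries, by 2.63-fold on the fitted means (log2 fold change 1.39, SE 0.12, adjusted p = 7.88e-07). Dact1, whose protein binds Dishevelled, fell to 66.1 ± 5.75 CPM in p16+, against 88.3 ± 1.58 CPM in p16-, with a fitted log2 difference of -0.42 ± 0.08 (SE; adjusted p = 0.00155). Of its exonic length 34.9% is overlapped by 4930474H06Rik on the opposite strand, which had 0 counts in all 6 libraries. Without strand, this 0 does not show that 4930474H06Rik was silent, and reads of the shared stretch may be missing from Dact1. Leaving out p16+ replicate 1, or p16- replicate 2, gave 2 rising genes.

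Of 12 genes of the calcium branch, 0 rose, 2 fell and 10 did not pass, with a median log2 fold change of 0.11. At an unadjusted p under 0.05, 3 were higher, and DESeq2 called 2 higher. Plcb4, a phospholipase C gene, fell to 31.8 ± 0.780 CPM in p16+, against 47.6 ± 2.14 CPM in p16- (adjusted p = 0.000149). Camk2b, a calcium-dependent kinase gene, was low at 37, 8 and 28 counts in the p16+ libraries, against 132, 54 and 80 counts in the p16- libraries (adjusted p = 0.0334). Its adjusted p was 0.0957 without p16+ replicate 2, 0.0718 without p16+ replicate 3, 0.162 without p16- replicate 1 and 0.0817 without p16- replicate 3, so that each of these omissions ended the call, at log2 fold changes of -1.29, -1.86, -1.35 and -1.75 in that order, against -1.72 with all libraries. The branch had 1 gene called higher when p16+ replicate 1 or p16- replicate 1 was left out.

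Of 9 genes of Wnt secretion and of partners of ROR or Kif26b, 4 rose, 1 fell and 3 did not pass, with a median log2 fold change of 0.29. Wls, which carries Wnt proteins to the cell surface, rose to 415 ± 18.8 CPM in p16+, against 305 ± 14.7 CPM in p16- (adjusted p = 0.000683). Porcn, which attaches the lipid that Wnt proteins need for secretion, was named after its value was seen and stood at 17.6 ± 0.774 CPM in p16+ against 12.2 ± 0.552 in p16-, at an adjusted p of 0.00585. Cthrc1, a secreted protein gene whose product stabilises complexes of Wnt, Frizzled and Ror2, was included with its rise known and is no independent evidence. It had 178, 181 and 152 CPM in p16+ and 61.7, 89.5 and 67.8 CPM in p16-.

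The nonmuscle myosin heavy chain genes in this list went in opposite directions. Kif26b protein binds nonmuscle myosin in the mouse kidney. Myh9 had 508, 512 and 509 CPM in p16+ and 276, 355 and 303 CPM in p16-, with a fitted log2 difference of 0.71 ± 0.09 (SE; adjusted p = 3.97e-05). Myh10 averaged 65.8 ± 6.47 CPM in p16+ and 91.7 ± 13.9 in p16-, with a fitted log2 difference of -0.48 ± 0.11 (SE; adjusted p = 0.00468). The groups did not overlap for either gene, though p16- replicate 1 of Myh10, at 75.7 CPM, lay near the highest p16+ library at 73.1 CPM. Sall1, a transcription factor gene upstream of Kif26b in the mouse kidney, was under the filter with 6, 12 and 1 counts in p16+ and 0 counts in all 3 p16- libraries, where up to 3 counts a library cannot be told from 0.

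**Figure D5:**
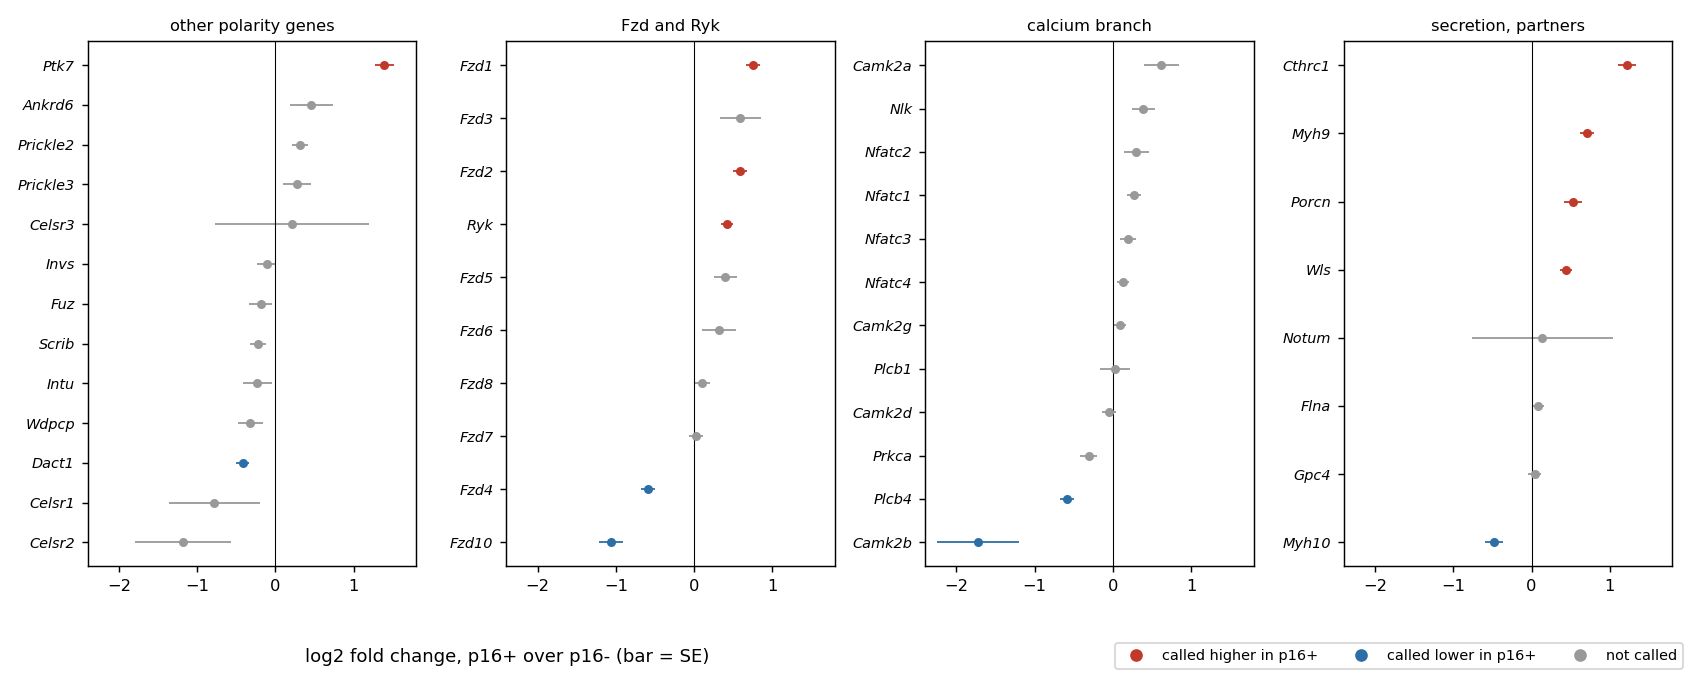
Log2 fold change (p16+ over p16-) with its SE for the 43 tested genes of the 4 pathway lists, 1 panel per list. Red points were called higher in p16+ (8 genes), blue points lower (6 genes) and grey points were not called (29 genes), with Ptk7 and Cthrc1 farthest to the right.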

How the data were processed

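Bulk RNA-seq of 6 libraries was used, 3 per group. Per the file headers, the deposited counts are raw fragment numbers that featureCounts 1.6.0 assigned to exons in GENCODE vM21, with no strand option given. The submitters' processing notes name STAR 2.7.3a and the GRCm38.p6 build. Exon lengths are those of the deposited files. All 55536 identifiers matched vM21. The kit named in the labels does not mark strand. Fragments in exonic stretches that genes share therefore cannot be assigned to either gene, and how many went uncounted was not measured. FPKM still uses the full exon length.

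Genes were filtered with filterByExpr (15903 left), scaled with TMM and tested with the quasi-likelihood F test in edgeR 4.0.16 (R 4.3.3, robust fit, group alone), with Benjamini-Hochberg adjustment over all genes tested and a threshold of 0.05. SE is the log2 fold change divided by the square root of F. Log2 CPM used a prior count of 2. FPKM is CPM per 1000 bases of exon. The test was checked on simulated data. Each log2 fold change is p16+ over p16-.

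The 10 genes and the lists were chosen with earlier results of these data known. In each list, up to 4 called genes with the smallest p are named, with the sort genes and the 5 genes most like Kif26b (mean log2 CPM of at least 2). The planned protein comparison was not run, and 1 planned gene list is not reported here. Alternatives were RLE, upper-quartile and no factors, no filter, a filter of CPM of at least 1 in 3 libraries, DESeq2 1.42.0, a replicate block, no robust estimation, leaving out each library, TPM for the levels, and the forward strand alone for the motifs.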

Additional observations from a re-analysis of the deposited data

How the results depend on the processing

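For the 10 genes and the other named genes, direction and side of the threshold were kept in 432 of 461 fits under the alternatives. Exceptions among the 10 were the lost calls of Ror1 and Prickle1 given above and sign changes of genes not called. Among the other named genes, Camk2b and Pecam1 lost calls in 5 fits, and the sort genes Ptprc and Itgb1 became called higher in 12, including no filter, the stricter filter, DESeq2 and the replicate block for both (adjusted p = 0.0180 to 0.0487 for Ptprc and 0.00955 to 0.0452 for Itgb1 over these 4). Vangl1 had a log2 fold change of -0.06 with library sizes alone and -0.03 to 0.09 with 1 library left out, Vangl2 -0.19 to 0.08, and Kif26a -0.86 to 0.29. With 1 library left out, 1 to 3 of the 10 were called higher and 3 lower. In the polarity module 2 genes rose with upper-quartile factors, no filter, the stricter filter, DESeq2 or the replicate block, and 1 to 2 with 1 library left out. In the calcium branch 1 rose without the filter, with the stricter filter or with the replicate block, 2 with DESeq2 and 0 to 1 with 1 library left out, where 1 to 2 fell. The cause of these changes was not tested. Searched on the forward strand alone, CTTTGAT was in 1 window and GGAATG in 0. The order of levels was the same by TPM, which uses the same counts and lengths and so cannot change the order within a library. Deviations from the group mean correlated at 0.0284, 0.0821 and -0.0046 between same-numbered libraries, and at -0.069 to 0.0394 between differently numbered ones. With 3 libraries per group these values cannot decide whether the libraries are paired. The main fit did not take the numbers as pairs, and whether same-numbered libraries share animals is not known. With the replicate block 3114 genes were called in place of 2660, and the calls of the 10 genes were as without it. Depth limits Wnt5b, Kif26a, Camk2b, Fzd9 and Sall1, which had under 150 counts in each library. The same holds for Celsr1, Celsr2, Celsr3, Ankrd6 and Notum of the lists.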
